A study of Mus musculus with 2 samples.

Results

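Imprinted growth genes were followed in cultured mouse fibro-adipogenic progenitors, or FAPs, which are muscle-resident mesenchymal cells able to form fat cells. They are H19, Igf2, Dlk1, Meg3, Peg3, Plagl1, Cdkn1c, Grb10, Mest and Ndn, which make 10 of the 44291 genes in the expression files. They were matched by gene symbol, and each symbol had 1 entry in each library. The set was chosen by a measured value, because H19 was more than 2-fold lower in the treated library and the other genes were taken as imprinted regulators to set beside it. The comparison that follows is therefore a description of the same 2 libraries, and no value in it was tested.

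The wild-type primary FAPs of both groups were put under adipogenic differentiation in DMEM supplemented with FBS (20%), insulin (10 μg/ml), dexamethasone (0.25 μM) and IBMX (0.5 mM). The treatment of the PRP group is named in the labels as PRP, for platelet-rich plasma, and the control group had vehicle. The study's own Results describe a transcriptome of FAPs given exosomes from young donors' PRP, or vehicle. Each group was 1 RNA-seq library without a replicate, and whether cells of several mice were pooled is not given in the sources used here.

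In an imprinted gene, the copy from one parent is expressed and the copy from the other parent is kept silent by marks laid down in the germ line. Many imprinted genes control fetal growth, and paternally expressed genes such as Igf2 often promote it while maternally expressed genes such as H19, Cdkn1c and Grb10 often restrain it. In mesenchymal tissue the set is known from the choice between proliferation, quiescence and fat formation, as with Dlk1, a surface protein that holds preadipocytes back from differentiation. Which parental copy was transcribed was not measured in these data.

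Depth was 40120843 gene-assigned reads for PRP and 34139741 for control. Values are FPKM, which scales the reads of a gene to its exon length and to the total of its library, so that levels can be compared between genes. An interval given after an FPKM is the exact Poisson 95% interval from the recovered reads, and an interval given after a ratio is an exact Clopper-Pearson 95% binomial interval. Both cover counting error only and say nothing about the spread between cultures. The log2 fold change is log2(PRP FPKM + 1) minus log2(control FPKM + 1), which shrinks differences at low levels. For counts, genes were compared where their FPKM averaged at least 1 over both libraries, which left 13401 genes with a median log2 fold change of 0.01, and 95% of them lay between -0.74 and 0.89. In bulk RNA, fewer cells of a type and less RNA per cell cannot be told apart.

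Of the 10 genes, 8 passed the filter and 2, Dlk1 and Mest, lay below it. H19 was the lowest of the 8 in its log2 fold change, Meg3 was next, and Plagl1 alone was higher in the PRP library. In all, 7 of the 8 were lower in the PRP library, where 49.1% of all 13401 genes were lower, and the median log2 fold change of the 8 was -0.25. At least 2-fold lower was 1 of the 8, H19, against 0.828% of all genes (2.83% changed at least 2-fold in either direction). The interval of the ratio lay wholly below 1 for 6 of the 8 genes, wholly above 1 for Plagl1 and across 1 for Grb10. It lay wholly below 1 for 26.1% of the 12369 compared genes whose reads came out whole at the annotated exon length. H19, Meg3 and Peg3, whose intervals rest on a fitted exon length, count among the 6 but not among the 12369. H19 was selected on its difference, so it supports none of these counts. Without it, 6 of 7 genes were lower, 5 of 7 intervals lay wholly below 1, and the median log2 fold change was -0.23. The remaining genes were also taken with these values known, so nothing about the set is read from the counts.

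**Figure D1:**
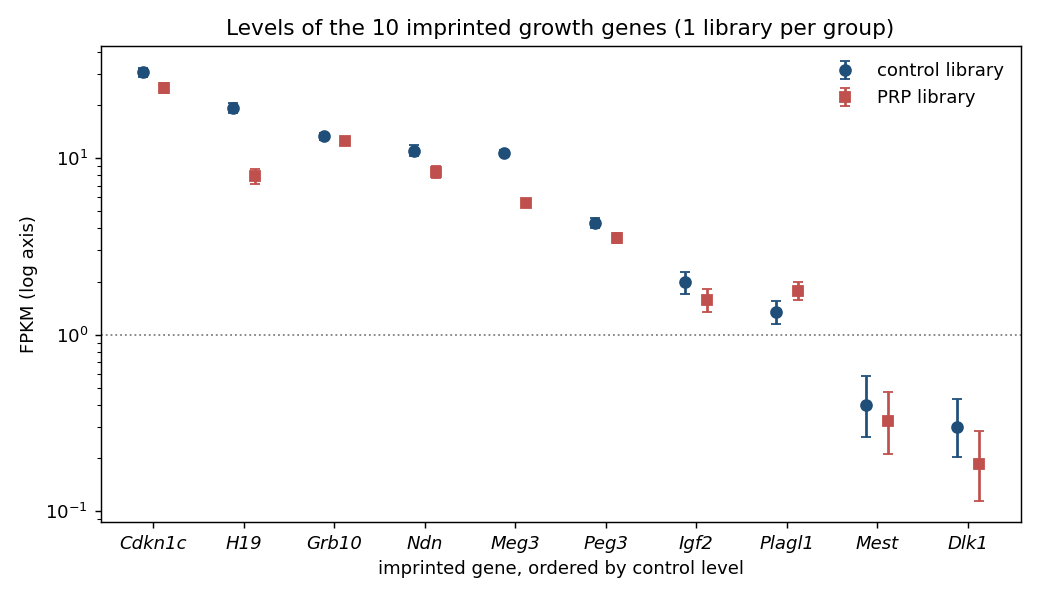
FPKM (log axis) of the 10 imprinted growth genes in the control library (circles) and the PRP library (squares), with exact Poisson 95% intervals of the recovered reads as bars and the filter at 1 FPKM as a dotted line. H19 fell from 19.3 to 7.88 FPKM and went from place 2 to place 4 among the genes, and Mest and Dlk1 lay under the filter in both libraries.

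H19 is a long noncoding RNA expressed from the maternal chromosome beside Igf2, and it is abundant in fetal mesoderm and low in most adult tissues. H19 (ENSMUSG00000000031, chromosome 7, 142575529 to 142578143, minus strand, GRCm38) had 19.3 FPKM (18.0 to 20.6) in the control library. The PRP library had 7.88 FPKM (7.15 to 8.67), so that the intervals of the libraries did not overlap. The ratio of PRP to control was 0.408 (0.363 to 0.459), and the log2 fold change was -1.19. With a pseudocount of 5 in place of 1 the log2 fold change was -0.92, which no longer reached 2-fold.

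Among the 13401 genes, H19 held rank 62 from the lowest log2 fold change, with 0.455% of the genes lower. Its level was above that of 89.9% of the detected genes in the control library and of 80.7% in the PRP library. H19 is annotated as a long intergenic noncoding RNA (lincRNA), and it was the 1 gene among 180 compared lincRNAs (0.556%) that was at least 2-fold lower. Since H19 was chosen for this difference, its rank and its place among lincRNAs restate that choice. The median log2 fold change of lincRNAs was 0.17, and 33.3% of them were lower in the PRP library. Protein-coding genes had a median of -0.002, with 50.4% lower. The read numbers of H19, 840 and 1750, rest on a fitted exon length of 2656 bases, which was the nearest of 3 possible lengths to the annotated 2460 bases. That choice sets the width of the intervals and leaves the ratio of FPKM as it is.

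The first exon of H19 holds the hairpin of miR-675, a microRNA that is cut from the H19 transcript. Mir675 (chromosome 7, 142577064 to 142577147, minus strand) had 16.3 FPKM with PRP against 44.6 FPKM in control, from 55 and 128 reads. The ratio was 0.366 (0.225 to 0.580), and its interval overlapped that of H19. All 84 bases of Mir675 (100%) lie within the H19 exons, so these reads cannot be told apart from reads of H19 and do not measure the mature microRNA. The mature forms are shown because they are the short products of this locus, and capitals mark the seed, bases 2 to 8, by which a microRNA pairs with its targets (RefSeq, GRCm38.p6, minus strand, 142577112 to 142577133 for 5p and 142577078 to 142577099 for 3p).
mmu-miR-675-5p: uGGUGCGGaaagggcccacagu
mmu-miR-675-3p: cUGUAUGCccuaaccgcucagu

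Igf2 encodes insulin-like growth factor 2, the fetal growth factor that is expressed from the paternal chromosome and shares enhancers with H19. Igf2 (ENSMUSG00000048583, chromosome 7, 142650766 to 142666816, minus strand) had 1.98 FPKM (1.71 to 2.27) in the control library and 1.57 FPKM (1.35 to 1.81) in the PRP library, so the intervals overlapped. The ratio was 0.794 (0.644 to 0.977), from 360 PRP and 386 control reads. The ratio of H19 to Igf2 FPKM was 9.77 in the control library and 5.03 in the PRP library. Both genes of the pair were thus lower in the PRP library, H19 by more than Igf2. As a limit, 64.5% of the Igf2 exon bases are shared with other annotated genes, chiefly Gm49394, a transcript that reads through Igf2. Gm49394 had 358 and 382 reads, so nearly the same reads were counted for both entries.

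Meg3 is a long noncoding RNA of the maternal chromosome and the partner of Dlk1, as H19 is of Igf2. Meg3 (ENSMUSG00000021268, chromosome 12, 109541001 to 109571726, plus strand) had 10.8 FPKM (10.4 to 11.1) in the control library and 5.57 FPKM (5.34 to 5.81) in the PRP library, and the intervals did not overlap. The ratio was 0.518 (0.491 to 0.547), from 4262 PRP and 7000 control reads at a fitted exon length of 19071 bases. Its log2 fold change of -0.84 left it just outside the 2-fold threshold, with H19 just inside at -1.19, and it held rank 232 of 13401. Dlk1 (ENSMUSG00000040856, chromosome 12, 109452823 to 109463336, plus strand) had 0.300 FPKM (0.201 to 0.431) in the control library and 0.185 FPKM (0.115 to 0.283) in the PRP library. At 58 and 42 reads, a difference was not detectable at this depth, since the ratio of 0.616 had an interval from 0.334 to 1.12. The Meg3 to Dlk1 ratio of FPKM was 35.8 in the control library and 30.1 in the PRP library.

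Cdkn1c encodes p57Kip2, an inhibitor of cyclin-dependent kinases that holds cells out of the cycle, and it had the highest level of the 10 genes in both libraries. Cdkn1c (ENSMUSG00000037664, chromosome 7, 143458339 to 143461050, minus strand) had 30.7 FPKM (28.9 to 32.6) in the control library and 25.1 FPKM (23.6 to 26.7) in the PRP library. These intervals did not overlap, and the ratio was 0.816 (0.748 to 0.890). As a limit, 30.7% of its exon bases lie under Gm44732, an antisense gene with 1429 PRP and 1424 control reads. Of the Gm44732 exon bases, 98.4% are shared with Cdkn1c, and how the authors' counting treated strand is not given in the sources used here, so reads of these partners cannot be told apart. H19 stood at 0.628 of the Cdkn1c level in the control library and at 0.314 in the PRP library.

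Grb10 encodes an adaptor protein that binds the insulin and IGF1 receptors and dampens their signal. Grb10 (ENSMUSG00000020176, chromosome 11, 11930508 to 12038683, minus strand) had 13.3 FPKM (12.8 to 13.9) in the control library and 12.6 FPKM (12.1 to 13.1) in the PRP library, which overlapped. Its ratio of 0.944 (0.890 to 1.003) came from 4133 control and 4587 PRP reads. Among the maternally expressed genes of the set, Grb10 was the one whose interval reached 1.

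The other genes are expressed from the paternal chromosome. Ndn encodes necdin, a protein of the MAGE family that restrains growth and fat cell differentiation. Ndn (ENSMUSG00000033585, chromosome 7, 62346569 to 62350262, plus strand) had 11.1 FPKM (10.2 to 11.9) in the control library and 8.35 FPKM (7.71 to 9.04) in the PRP library. The intervals did not overlap, and the ratio of 0.756 (0.677 to 0.843) was the third lowest of the 8 genes over the filter. Peg3, a zinc finger protein gene (ENSMUSG00000002265, chromosome 7, 6703892 to 6730431, minus strand), had 4.29 FPKM (4.03 to 4.56) in the control library and 3.52 FPKM (3.30 to 3.75) in the PRP library. Its intervals were also separate, with a ratio of 0.821 (0.751 to 0.898) at a fitted exon length of 13616 bases.

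Plagl1 encodes a zinc finger transcription factor that arrests the cell cycle and is known to act on other imprinted genes, H19 and Igf2 among them. Plagl1 (ENSMUSG00000019817, chromosome 10, 13060504 to 13131694, plus strand) had 1.34 FPKM (1.15 to 1.55) in the control library and 1.77 FPKM (1.57 to 1.99) in the PRP library, with no overlap. The ratio was 1.32 (1.09 to 1.60), and Plagl1 was the 1 gene of the set whose interval lay wholly above 1. The Plagl1 to Igf2 ratio of FPKM was 0.679 in the control library and 1.13 in the PRP library. Mest encodes a protein of the hydrolase family that is linked to fat cell size. Mest (ENSMUSG00000051855, chromosome 6, 30723547 to 30748465, plus strand) had 0.401 FPKM (0.264 to 0.583) in the control library and 0.322 FPKM (0.210 to 0.474) in the PRP library, from 54 and 51 reads. The ratio of 0.804 had an interval from 0.449 to 1.43, and a difference was not detectable at this depth. As a limit, 23.1% of the Mest exon bases are shared with its neighbour Copg2, on the minus strand, which had 708 PRP and 672 control reads. How the counting treated strand is not given, so in the shared part reads of Mest and Copg2 cannot be told apart.

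**Figure D2:**
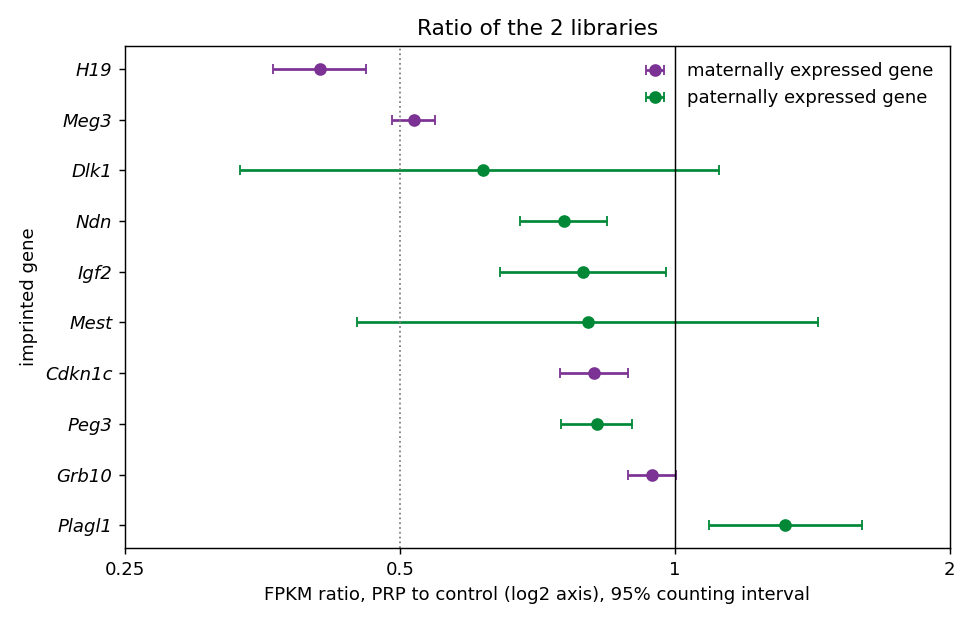
Ratio of PRP to control FPKM (log2 axis) of the 10 genes with its exact 95% counting interval as bars, coloured by the parental copy that is known to be expressed, with lines at 1 and at 0.5. The interval of H19 (0.363 to 0.459) lies wholly under 0.5, that of Meg3 (0.491 to 0.547) crosses it, and that of Plagl1 lies above 1.

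By the parental copy known from other work, all 4 maternally expressed genes (H19, Meg3, Cdkn1c and Grb10) were lower, with a median log2 fold change of -0.56, and without H19, whose value chose the set, the median of the other 3 was -0.28. Of the 6 paternally expressed genes, 4 passed the filter and 3 of these were lower, with a median of -0.22. The ranges of both groups overlapped, since Grb10 at -0.08 lay above Ndn at -0.37. In the control library the order of levels was Cdkn1c, H19, Grb10, Ndn, Meg3, Peg3, Igf2, Plagl1, Mest and Dlk1. Neighbours whose intervals overlapped were Ndn and Meg3, and Mest and Dlk1. In the PRP library H19 stood in place 4, below Grb10 and Ndn, and Plagl1 stood above Igf2. There the intervals of Ndn and H19, of Plagl1 and Igf2, and of Mest and Dlk1 overlapped. The summed level of the 10 genes was 93.5 FPKM in the control library and 66.8 FPKM in the PRP library, and the share of H19 in it was 20.6% and 11.8%.

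**Figure D3:**
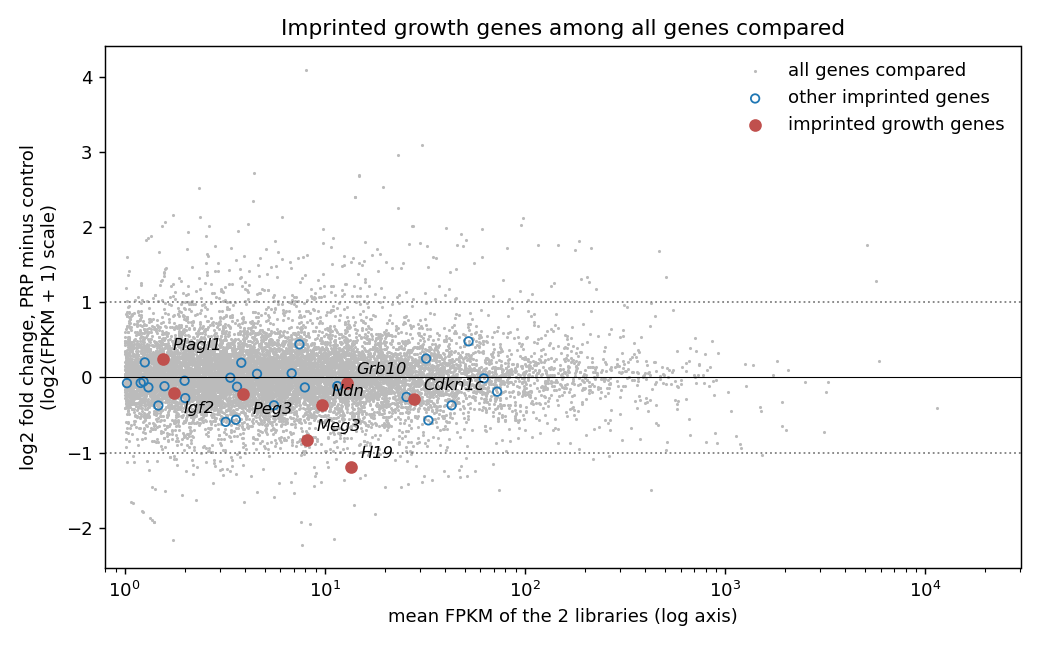
Log2 fold change, PRP minus control, on the log2(FPKM + 1) scale against the mean FPKM of both libraries (log axis), for the 13401 genes compared (grey), the 8 imprinted growth genes over the filter (filled) and other imprinted genes (open). H19 lies below the dotted line of a 2-fold difference and Meg3 lies just above it, while no open circle passes either line.

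Imprinted genes lie in clusters, so neighbours of each gene, though not all of them, were listed with it. Of 28 listed neighbours, 12 passed the filter, of which 10 were lower, 2 were higher and none differed 2-fold, and their median log2 fold change was -0.18. Another 12 lay below the filter, 3 (Zfp264, Klf14 and Magel2) were at 0 in both libraries, and no entry was found under the symbol Ins2. Beside Meg3, the noncoding RNA Rian, which carries small nucleolar RNAs, had 2.35 FPKM with PRP against 4.05 FPKM in control. Its ratio was 0.580 (0.543 to 0.620), near that of Meg3, at a fitted exon length. Rian, Meg3 and Mirg follow each other on the maternal copy of this cluster, and Mirg, a microRNA host, had 0.215 FPKM with PRP against 0.241 FPKM in control.

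Beside H19 and Igf2, Lsp1, which encodes an actin-binding protein of leukocytes and other cells, had 29.7 FPKM with PRP against 43.7 FPKM in control, a ratio of 0.680 (0.649 to 0.713). Mrpl23, a mitochondrial ribosomal protein gene next to H19, had 2.48 FPKM with PRP against 2.16 FPKM in control, and its interval (0.943 to 1.40) spanned 1. Tnnt3, which was listed as a muscle marker and not as a neighbour, lies between Lsp1 and Mrpl23. It had 36.7 FPKM with PRP against 39.6 FPKM in control, a ratio of 0.927 (0.852 to 1.01). Beside Cdkn1c, the tetraspanin gene Cd81 had a ratio of 0.829 (0.769 to 0.895) and the histone chaperone gene Nap1l4 one of 0.991 (0.946 to 1.04). Kcnq1ot1, the noncoding RNA that silences Cdkn1c on the paternal chromosome, had 0.131 FPKM with PRP against 0.169 FPKM in control. Its ratio was 0.775 (0.650 to 0.925), at a fitted exon length. Beside Ndn, the splicing protein gene Snrpn had 4.73 FPKM with PRP against 6.42 FPKM in control, a ratio of 0.738 (0.609 to 0.893). Snurf, whose exons lie wholly within Snrpn, had a ratio of 0.664 (0.515 to 0.855), and its reads cannot be told apart from those of Snrpn. Below the filter, where Kcnq1ot1 also lay, a few more neighbours differed in either direction by more than their counting error. Mkrn3, beside Ndn, had 44 PRP and 8 control reads, a ratio of 4.68 (1.59 to 18.7). Beside Grb10, Cobl, an actin nucleator gene, had 0.713 FPKM with PRP against 0.309 FPKM in control, a ratio of 2.31 (1.61 to 3.35). Ddc, an amino acid decarboxylase gene on the other side of Grb10, had 17 PRP and 45 control reads, a ratio of 0.321 (0.127 to 0.735).

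**Figure D4:**
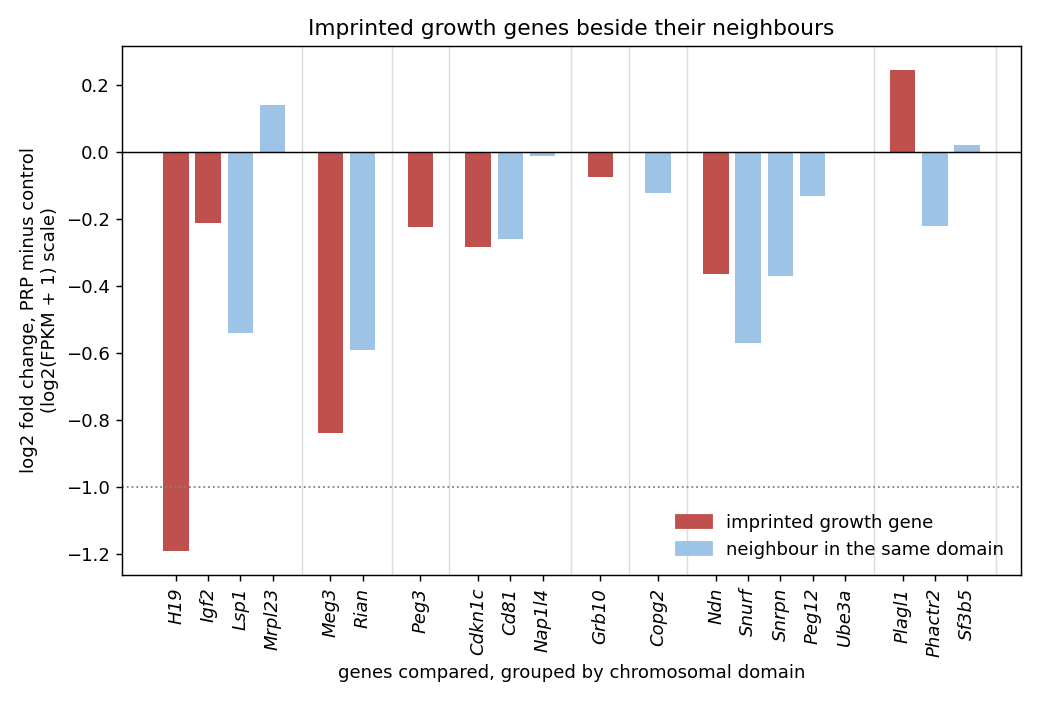
Log2 fold change, PRP minus control, on the log2(FPKM + 1) scale of the imprinted growth genes over the filter (red) and of their neighbours over the filter (blue), grouped by chromosomal cluster, with a dotted line at a 2-fold difference. Each bar compares 1 PRP with 1 control library. H19 at -1.19 and Meg3 at -0.84 have the longest bars of their clusters, Rian and Snurf those of the neighbours, and Plagl1 stands above 0.

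Beyond the clusters of the set, 35 further imprinted genes were listed, of which 19 passed the filter, 12 lower and 7 higher, with a median log2 fold change of -0.07. The most abundant were Gnas, Ampd3 and Igf2r. Gnas, the gene of the stimulatory G protein alpha subunit, had 67.9 FPKM with PRP against 77.5 FPKM in control, a ratio of 0.875 (0.856 to 0.895). Ampd3, an AMP deaminase gene, had 61.1 FPKM with PRP against 43.5 FPKM in control, a ratio of 1.40 (1.35 to 1.46). Igf2r encodes the receptor that takes up IGF2 for degradation, and it had 37.4 FPKM with PRP against 48.7 FPKM in control, a ratio of 0.768 (0.744 to 0.794). Over all 27 compared imprinted genes outside the set, with the neighbours known to be imprinted, 20 were lower and 7 were higher, with a median of -0.12 and a range from -0.59 to 0.48. Their intervals lay below 1 for 11, above 1 for 4 and across 1 for 12. Whether these genes are imprinted in FAPs was not measured. Snrpn and Snurf, whose reads cannot be told apart, both count among the 20, and so does Dcn, which is also a FAP marker. H19 and Meg3 lay below the lowest of the 27, Rian, and none of the 27 reached a 2-fold difference in either direction. H19 was chosen for its difference, so its place restates that choice. Below the filter, further imprinted genes differed by more than their counting error. Slc22a3 had 68 PRP and 4 control reads, a ratio of 14.5 (3.71 to 124). Slc22a2 had 0 PRP and 12 control reads. Lower ratios were 0.558 (0.369 to 0.837) for Asb4, 0.627 (0.424 to 0.921) for Dhcr7 and 0.651 (0.445 to 0.948) for Ppp1r9a.

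IGF2 signals through receptors and is held by binding proteins, so 16 genes of the IGF axis were listed. Of these 15 passed the filter, 10 lower and 5 higher, with a median log2 fold change of -0.15. Igfbp5, a binding protein gene, was the 1 that differed at least 2-fold on the log2(FPKM + 1) scale, with 1.39 FPKM with PRP against 6.54 FPKM in control, a ratio of 0.213 (0.179 to 0.253). Without a pseudocount, the plain FPKM ratio passed 2-fold for 3 more, the growth factor gene Igf1 (0.491, 0.439 to 0.548) and the protease genes Pappa (0.485, 0.433 to 0.542) and Pappa2 (2.26, 1.84 to 2.79), whose products cleave IGF binding proteins. The most abundant were 2 further binding protein genes. Igfbp7 had 189.9 FPKM with PRP against 210.2 FPKM in control, a ratio of 0.904 (0.867 to 0.942). Igfbp6, whose product prefers IGF2, had 96.0 FPKM with PRP against 122.9 FPKM in control, a ratio of 0.781 (0.736 to 0.829). The study reports the opposite direction by RT-PCR, with higher Igfbp6 mRNA in FAPs given the exosomes. The assays differ, and 1 library per group gives no spread between cultures. Igf2bp2, whose product binds Igf2 mRNA, had 19.7 FPKM with PRP against 18.3 FPKM in control, a ratio of 1.08 (1.02 to 1.14).

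Imprints are kept through cell division by DNA methylation and by zinc finger and insulator proteins, and 12 genes of this machinery were listed. Of these 10 passed the filter, 7 lower and 3 higher, none 2-fold, with a median log2 fold change of -0.06. Dnmt1, the maintenance methyltransferase gene, had 23.9 FPKM with PRP against 30.1 FPKM in control, a ratio of 0.792 (0.756 to 0.829). Eed, a Polycomb subunit gene, had a ratio of 1.27 (1.18 to 1.36). Ctcf encodes the insulator protein that binds between Igf2 and H19, and its ratio of 0.962 had an interval from 0.891 to 1.04. DNA methylation itself was not measured.

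The study names let-7f and miR-16 as cargo of the exosomes, and H19 is known for binding let-7. The transcripts of the 10 genes (GENCODE M21, GRCm38) were therefore searched on the sense strand for the 7-base seed matches CTACCTC and TGCTGCT. Capitals mark the seed, bases 2 to 8, in the mouse forms (RefSeq, GRCm38.p6).
mmu-let-7f-5p: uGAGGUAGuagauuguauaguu
mmu-miR-16-5p: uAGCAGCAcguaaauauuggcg

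A let-7 match was present in 5 of the 10 genes (Dlk1, Igf2, Meg3, Peg3 and Plagl1), and in 25.4% of 12969 compared genes with M21 transcripts. A miR-16 match was present in 5 of the 10 (H19, Igf2, Meg3, Mest and Ndn), and in 51.3% of the 12969. The shares over all genes hold only genes over the filter, and of the 8 genes of the set over the filter 4 had a let-7 match and 4 a miR-16 match. They take no account of transcript length. H19, the lowest gene of the set, held no let-7 match in these letters and 1 miR-16 match, in 5 of its 7 transcripts. Meg3 held 4 sites of each kind over its 11 transcripts. Shown, with the match in capitals, are the only site of H19, 1 of the 4 Meg3 sites for each microRNA, the site of Plagl1, which was higher, and the coding 1 of 2 let-7 sites of Igf2. The Meg3 and Igf2 sites were picked after all sites were seen, the Meg3 pair because both lie in the same exon.
H19 miR-16 site, noncoding exon, chr7:142576452-142576458, minus strand: agctaacacttctcTGCTGCTc
Meg3 miR-16 site, noncoding exon, chr12:109543769-109543775, plus strand: ctggatgccaaggcTGCTGCTc
Meg3 let-7 site, noncoding exon, chr12:109543796-109543802, plus strand: cctgctgtgcacctCTACCTCc
Plagl1 let-7 site, coding exon, chr10:13128224-13128230, plus strand: gtataatcctgttcCTACCTCa
Igf2 let-7 site, coding exon, chr7:142654316-142654322, minus strand: cgagagggacgtgtCTACCTCt

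Coordinates are those of the match. The 5 genes with a let-7 match had FPKM ratios from 0.518 (Meg3) to 1.32 (Plagl1), and the 5 without one had ratios from 0.408 (H19) to 0.944 (Grb10). The 5 genes with a miR-16 match had ratios from 0.408 (H19) to 0.804 (Mest), and the 5 without one had ratios from 0.616 (Dlk1) to 1.32 (Plagl1). These ranges overlapped for both microRNAs, for miR-16 only through Dlk1, which lay below the filter. Over the filter, the highest ratio with a miR-16 match was 0.794 (Igf2) and the lowest without one was 0.816 (Cdkn1c). The counting intervals of Igf2 (0.644 to 0.977) and Cdkn1c (0.748 to 0.890) overlapped, and a link to the matches was not tested. A match is a run of letters and no evidence of binding, and no treatment with a single microRNA is part of these libraries. Of the let-7 hairpin genes themselves, Mirlet7f-1 had 10 PRP and 6 control reads, which do not measure the mature form. With Mir675, Hmga2, Lin28a, Lin28b and 9 let-7 hairpins, the RNAs linked to H19 numbered 13, of which 4 passed the filter, 2 lower and 2 higher. Hmga2, a chromatin protein gene and a known let-7 target, had a ratio of 1.08 (1.02 to 1.15), and Mirlet7c-2 was at least 2-fold lower on the log2(FPKM + 1) scale from 1 PRP and 8 control reads, with an interval that spanned 1.

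Promoter windows from 250 bases before to 50 after a gene's start (RefSeq, GRCm38.p6) were given for 8 of the 10 genes, as 15 windows, with none for H19 or Cdkn1c. The core of the known PLAGL1 motif, GGGGCCCC, which reads the same on both strands, stood in 1 of the 15 windows, that of Peg3, and in 1.08% of all 32851 windows. Its match begins at position -201 from the start of Peg3. The longer form of the motif, with 2 more G at its 5′ end, stood in none of the 15 windows and in 0.0852% of all windows.

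The labelled cell type was checked with its markers. Of 8 FAP marker genes 7 passed the filter, among them Pdgfra, the receptor by which FAPs are sorted, with 19.8 FPKM with PRP against 28.0 FPKM in control. All 7 were lower with PRP (median log2 fold change -0.30), so that these markers moved in the same direction as H19, Meg3 and 5 other genes of the set. Their summed level was 231.6 FPKM with PRP against 380.4 FPKM in control, of which Col1a1, a collagen gene, held 118.6 and 218.7 FPKM. Dpt was the 1 marker at least 2-fold lower, with 18.8 FPKM with PRP against 50.2 FPKM in control. The myogenic factors Pax7 and Myog were at 0 in both libraries, and Myod1 was at 0 with PRP and at 0.0315 FPKM in control. The summed level of the myogenic markers, structural muscle genes included, was 55.1 and 54.3 FPKM in the PRP and control library. Adipocyte markers summed to 57.9 and 49.5 FPKM, endothelial markers to 9.45 and 5.38 FPKM (Kdr among them at least 2-fold higher, with an FPKM ratio of 2.82), macrophage markers to 10.1 and 10.4 FPKM and platelet markers to 1.51 and 2.62 FPKM, with Ppbp and Gp9 at 0. Of the adipocyte sums, Fabp4 held 40.7 and 33.6 FPKM, and of the adipocyte markers over the filter 3 were higher and 1 was lower. The macrophage markers over the filter went opposite ways, Cd68 with a ratio of 1.98 (1.41 to 2.82) and Lyz2 with 0.648 (0.512 to 0.820). Of the platelet sums, Gp1bb held 0.872 and 2.26 FPKM, and 92.9% of its exon bases are shared with other genes. Itga2b, at 0.567 FPKM with PRP against 0.365 FPKM in control, and Pf4, at 0.0691 against 0 FPKM, went the other way. The part of any of these shifts in the levels of the imprinted genes was not tested.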

How the data were processed

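RNA was extracted with TRIzol and stranded mRNA libraries were made, per the labels. The submitters' processing notes name fastp 0.23.4, STAR 2.5.3a, featureCounts and the mm10 build. The deposited values are FPKM per gene, as the authors computed them from counted reads. Annotation release, strand setting and the FPKM step are not given in the sources used here. From these values, whole reads were recovered with GENCODE M21 exon lengths (within 0.001 reads) for 26406 of 28160 genes above 0 (93.8%). Even read numbers were in excess (79.3% and 80.3% of genes up to 8 reads), so intervals used reads divided by 2. They take no account of PCR duplicates. Among the genes named with values, H19, Meg3, Peg3, Rian, Gnas and Kcnq1ot1 needed a fitted length. With 1 library per group no test was run.

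The genes of the set and all lists were chosen with earlier results of these data known. Named were all genes of the set, neighbours in their clusters and, from the lists of other imprinted genes, the IGF axis, imprint regulators and RNAs linked to H19, the 3 genes with the highest mean FPKM and up to 3 that changed at least 2-fold. Other genes named, single cell type markers, Igf1, Pappa, Pappa2, Gm49394 and Gm44732 among them, were chosen after their values were seen. Alternatives were a pseudocount of 0.1 or 5, leaving out the filter or setting it to a mean FPKM of 5, rescaling to a common sum, also without mitochondrial and the top 50 genes, centring on the median, and thresholds of 1.5-fold and 4-fold. Counts without H19 were added after seeing the data. The steps were tested on simulated data. Python 3.11.15, NumPy 2.4.6, pandas 2.3.3, SciPy 1.17.1 and matplotlib 3.10.9 were used.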

Additional observations from a re-analysis of the deposited data

How the results depend on the processing

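The number of genes of the set at least 2-fold lower, 1 as reported (H19), was 0 with a pseudocount of 5, 2 at a threshold of 1.5-fold, 0 at 4-fold and 0 without H19, a setting chosen after seeing the data. The number of all genes at least 2-fold changed, 379 as reported, came to 739 and 113 with pseudocounts of 0.1 and 5, to 210 with the filter raised to 5 FPKM, to 1436 at 1.5-fold and to 26 at 4-fold, and the share of higher genes among them went from 70.7% to 57.4% at 1.5-fold and to 88.5% at 4-fold. Imprinted genes outside the set that were lower numbered 20 of 27 as reported, 37 of 53 without a filter and 8 of 12 with the filter at 5. Genes of the set that were lower numbered 9 of 10 without a filter and 5 of 5 with the filter at 5, and their median log2 fold change stayed between -0.37 and -0.19. Of 53 recomputed log2 fold changes of single genes of the set none changed sign and 3 moved, H19 to -0.92 and Meg3 to -0.58 with a pseudocount of 5 and Meg3 to -0.94 with one of 0.1. Moved means a shift at least as large as the distance from the middle to the end of the gene's own counting interval, in log2 units. Genes with few reads could therefore shift without being counted. With a pseudocount of 5, Igf2 went from -0.21 to -0.09 and Plagl1 from 0.24 to 0.09. No paired analysis was possible because there was a single library in either group. Depth limits Dlk1 and Mest, whose reads allow ratios on both sides of 1.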
